A study of Homo sapiens with 6 samples.

Results

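In brain-metastatic breast cancer cells, 144 genes had a ratio of splice junction reads, RBM47-expressing cells over control, that was at least 2 times the ratio of the median gene. They are 144 of 6992 genes with at least 200 reads, or 2.06%, and 445 genes (6.36%) lay as far below the median. For each gene, the reads over its cassette exon junctions were summed in each group, the log2 ratio of RBM47 over control was taken, and the median of all 6992 genes (-0.21) was subtracted. Genes with a centred log2 ratio of at least 1 were kept. The genes were thus chosen by the measured ratio itself, so its size is given here as a description with no test.

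The table behind these ratios covered the human breast cancer cell line MDA-MB-231-BrM2a, which was derived from MDA-MB-231 by its ability to colonise brain. It held 3 control samples, cells carrying an empty vector and not clonal, and 3 RBM47 samples from 1 single-cell clone (wt#10) that carried Flag-tagged wild-type RBM47 under a doxycycline-inducible promoter. Both groups were treated with 10 ng/ml doxycycline for 3 days. Because the RBM47 cells are a single clone, RBM47 and the clone's own history cannot be told apart. Read totals are given for a group as a whole, 26435521 junction reads in control and 24058790 with RBM47, so no value of a single sample and no spread between samples stands behind a gene's ratio. Nor can a larger share of cells with an RNA be told apart from more of it per cell. The inclusion rate of each exon is given per sample. RBM47 itself had no row in the table, so the transgene could not be checked here.

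RBM47 is an RNA-binding protein that can alter exon choice in pre-mRNA in the nucleus and the stability of mature mRNA. A cassette exon is one that is either kept between its neighbours or skipped. Reads that cross its junctions tell how often it is kept. Their sum over both forms follows the amount of spliced RNA of the gene at those exons only where exon choice is unchanged. A kept exon gives more junctions than a skipped one, and the sums behind the gene ratios were not corrected for this. The inclusion rate is a ratio within an event and does not depend on the gene's level. It is not fully separate from the gain in reads, since a change in exon choice also changes the sum.

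The 144 genes were less deeply read than the rest in control cells. Their median total was 379 in control and 795.5 with RBM47, against 1204 and 982 over all tested genes. The median centred log2 ratio was 1.24, which is 2.36 times the ratio of the median gene. The range ran from 1.00 to 3.68, with 112 genes between 1 and 1.5 and 8 at 2 or more. An exact binomial 95% interval of the ratio covers counting error only and no difference between samples. It is too narrow where events of a gene hold the same reads. Its lower end was at 1 or more in 87 genes and under 1 in 57. Most of the genes therefore sit close to the limit that defined them, and a small number stand far from it.

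**Figure D1:**
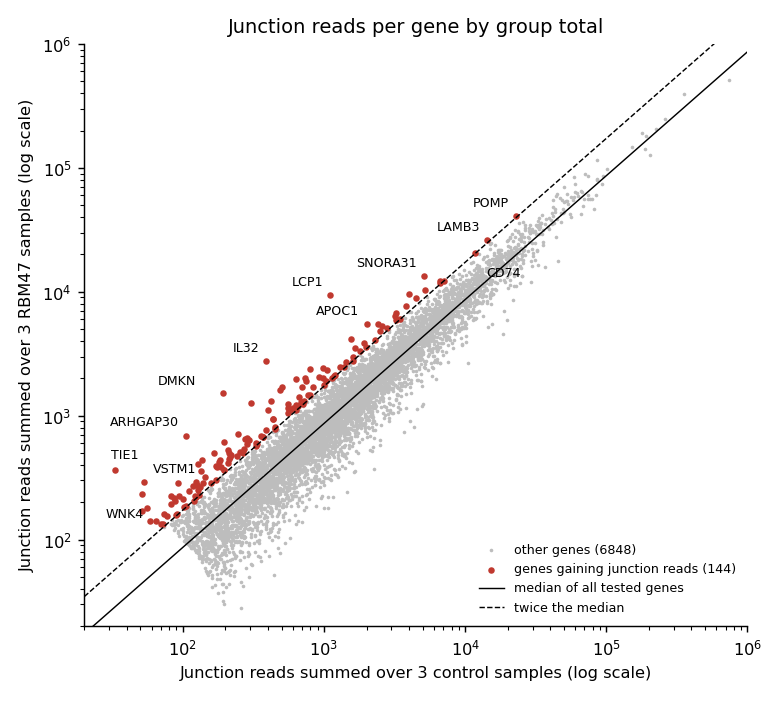
Junction reads of each of 6992 genes, summed over 3 control samples (horizontal) and 3 RBM47 samples (vertical), both on log scales. The 144 genes (red) lie above the dashed line at 2 times the median gene (solid line), and TIE1, LCP1, DMKN and IL32 are farthest from it.

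TIE1, a receptor tyrosine kinase best known from endothelial cells, had the highest ratio. Its junction reads went from 33 in control to 366 in RBM47 cells, a ratio 12.8 times that of the median gene (centred log2 3.68, counting interval 3.16 to 4.24). It lies at chr1:43766653-43788779 on the plus strand of GRCh37. LCP1, which encodes the actin-bundling protein L-plastin of blood cells and many tumours, had 1105 and 9374 reads (centred log2 3.29, interval 3.20 to 3.38). Its counting interval is the narrowest of the large gains, and all 6 of its events had centred log2 ratios between 2.85 and 3.51. DMKN, a secreted protein of differentiating epidermis, had 192 and 1534 reads (3.21).

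IL32, a proinflammatory cytokine, had 390 and 2760 reads (centred log2 3.03, interval 2.88 to 3.19), and its 8 events ranged from 2.58 to 3.57. ARHGAP30, a GTPase-activating protein for small GTPases, had 105 and 691 reads (2.93). VSTM1, an immunoglobulin-like receptor of myeloid cells, had 53 and 290 reads over 1 event (2.66). The kinase WNK4, a regulator of ion transport, had 51 and 232 (2.39), and the adaptor SH2D3A had 302 and 1258 (2.27). In all 8 of these genes the ratio was more than 4 times that of the median gene. TIE1, VSTM1 and WNK4 rest on fewer than 100 control reads, and their intervals are correspondingly wide.

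The next 7 genes had centred log2 ratios of 1.86 to 1.96. EEF1A2, a tissue-restricted form of a translation elongation factor, had 506 and 1700 reads (1.96), and ALDH1L1, a folate enzyme, 51 and 171 (1.95). PRELID1, a mitochondrial lipid transfer protein, had 485 and 1605 (1.94). The ganglioside synthase B4GALNT1 had 136 and 440 (1.90), the membrane protein PLLP 56 and 181 (1.90), the G protein regulator RGS14 127 and 407 (1.89), and SUN3, a nuclear envelope protein of the testis, 92 and 288 (1.86). The ranked plot shows the ratios falling quickly over these first 15 genes and then flattening toward 1.

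**Figure D2:**
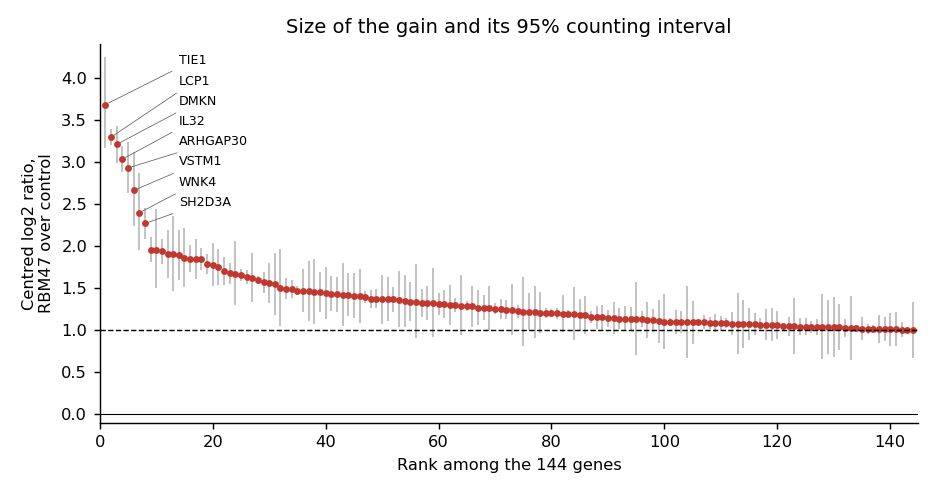
Centred log2 ratio of RBM47 over control (vertical) for the 144 genes in rank order, with exact binomial 95% intervals for counting error as grey bars. The 8 named genes lie above 2, and the rest run down to 1.00 at the dashed line.

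Most of the reads sat in genes with modest ratios. POMP, a chaperone of proteasome assembly, had 22925 and 41032 reads (centred log2 1.05), and LAMB3, the beta chain of the basement membrane protein laminin-332, had 14274 and 26351 (1.09). CD74, the invariant chain of MHC class II, had 11739 and 20363 (1.00, interval 0.97 to 1.04). SAP18 (7049 and 12322 reads, 1.01) and ALG5 (6677 and 11724, 1.02) are a splicing-linked corepressor subunit and an enzyme of protein glycosylation. SLC50A1, a sugar transporter, had 5182 and 10319 reads (1.20). LSR, a receptor of tricellular junctions in epithelia, had 4020 and 9641 (1.47), with all 10 of its events between 1.26 and 1.62. CKLF, a chemokine-like factor, had 4478 and 8855 (1.19).

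On the lower edge, ATF3 (119 and 206 reads), CD74 and CALCOCO1 (1595 and 2772) were just inside the limit at 1.00062, 1.00358 and 1.00631. CUEDC2 (1112 and 1924), ACAA2 (644 and 1112) and MYO18A (1662 and 2866) were just outside at 0.999894, 0.996966 and 0.99506. The genes on either side of the limit differ by far less than their counting error, so the boundary marks no step in the data.

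Sets of genes with a shared role were then counted against the 2.06% of all tested genes. Interferons act through STAT and IRF factors on promoters that carry an interferon-stimulated response element (ISRE), and NF-kB, a family of dimeric factors, acts on sites of its own to turn on inflammatory genes. Both programs raise the machinery that shows peptides on MHC molecules. Of 43 tested interferon response genes, 5 were among the 144 (11.6%) and 0 among the 445 genes on the losing side. The median of the 43 was 0.18, with 29 above 0, where the median over all genes is 0 by construction. The count of 5 rests in part on genes with few reads and became 3 of 36 with a minimum of 500 reads, 2 of 32 with 1000, and 1 of 18 from skipping reads only.

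Among the interferon genes, UBA7, the activating enzyme for the ubiquitin-like modifier ISG15, had 143 and 319 reads (centred log2 1.37). OASL, an oligoadenylate synthetase-like antiviral protein, had 100 and 212 (1.29), and the dynamin-like antiviral GTPase MX1 had 213 and 448 (1.28). BST2, or tetherin, which holds budding virus at the cell surface, had 2562 and 5296 (1.26, interval 1.19 to 1.33). PSMB9, a catalytic subunit of the immunoproteasome, had 774 and 1474 (1.14). IRF1 (1984 and 2280, 0.41), IRF7 (702 and 770, 0.34) and IRF9 (1338 and 1309, 0.18), factors that bind ISREs, all had ratios under the limit of 1. IRF1, IRF7 and IRF9 were picked for their role after their values were seen.

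The MHC and antigen presentation list had 3 of 21 tested genes among the 144 (14.3%) and 1 on the losing side, with a median of 0.36 and 15 above 0. Its members were PSMB9, CD74 and CTSS, the lysosomal protease that trims the invariant chain (447 and 807 reads, 1.06). The other genes of the list went both ways. The 2 chains of the class II peptide editor, HLA-DMA and HLA-DMB, had 671 and 780 (0.43) and 608 and 492 reads (-0.10). The peptide transporter TAP1 had 1329 and 1480 reads (0.36), CIITA, the activator of class II genes, 150 and 112 (-0.21), and the chaperone CANX 45598 and 17680 (-1.16). These 5 genes were named after their values were seen. This list depends on how the ratios are centred, since CD74 and CTSS lie close to the limit. With the ratio of the 2 group totals subtracted in place of the median, 1 of its genes was kept, and with nothing subtracted 0 were. From skipping reads only it was 0 of 6.

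The NF-kB and inflammatory list had 4 of 31 (12.9%) and 1 on the losing side, with a median of 0.06. After IL32, its highest ratio was in CD40, a receptor of the tumour necrosis factor family that signals to NF-kB (422 and 1317 reads, centred log2 1.85, interval 1.69 to 2.01). IL8, the neutrophil chemokine CXCL8, had 208 and 416 (1.21, interval 0.97 to 1.46), and RELB, an NF-kB subunit of the alternative pathway, had 370 and 673 (1.07). NFKBIE, an inhibitor of NF-kB, lay just under the limit with 432 and 744 reads (0.99). The classical subunits RELA and NFKB1 had 5187 and 5683 reads (0.34) and 1584 and 1453 (0.08). RELA and NFKB1 were also picked after their values were seen. From skipping reads only, 2 of 10 genes of this list reached 1.

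The epithelial and mesenchymal list had 3 of 24 among the 144 (12.5%) and 7 on the losing side, with a median of -0.35. KRT8, a keratin of simple epithelia, had 3199 and 6358 reads (1.20), LAMB3 is given above, and TGFBI, a matrix protein induced by TGF-beta, had 685 and 1284 (1.12). KRT8 was the only 1 of 12 epithelial or luminal markers with enough reads to be tested. ESRP2 (38 and 29 reads) and ERBB3 (33 and 20) had too few. TGFBI is also 1 of 9 tested markers of mesenchymal-like breast cancer cells. These 9 had a median of -0.34, with 2 above 0 and 1 on the losing side, FN1 (-1.27). VIM, the intermediate filament vimentin of mesenchymal cells, was the deepest of the mesenchymal markers with 741835 and 507943 reads (-0.34). The markers fixed for leukocytes, fibroblasts and endothelial cells had 0 tested genes each. The growth factor list had 3 of 32 (9.38%), with FGF1 (744 and 1909 reads, 1.57), the receptor MST1R (127 and 251, 1.19) and the procollagen protease BMP1 (336 and 586, 1.01), while 5 of its genes were on the losing side and its median was -0.52.

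Smaller shares were seen elsewhere. The integrated stress and unfolded protein response list had 2 of 31 (6.45%), the tRNA ligase AARS (2787 and 5121 reads, 1.09) and the stress-induced factor ATF3. The lysosome and autophagy list had 2 of 60 (3.33%), CTSS and the autophagosome protein MAP1LC3B (370 and 670 reads, 1.07). The matrix list had 2 of 29 (6.90%), TGFBI and LAMB3 again, and the sterol and fatty acid list 1 of 36 (2.78%), the mevalonate enzyme MVD (555 and 1156 reads, 1.27). The lists for the Wnt pathway (19 genes), integrins and cadherins (26), axon guidance (22), hypoxia (34), NRF2 (35), mitosis and DNA replication (63) and p53 targets (17) had 0 genes among the 144. At a share of 2.06%, lists of this size would hold about 1 member or none, so these zeros say little.

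**Figure D3:**
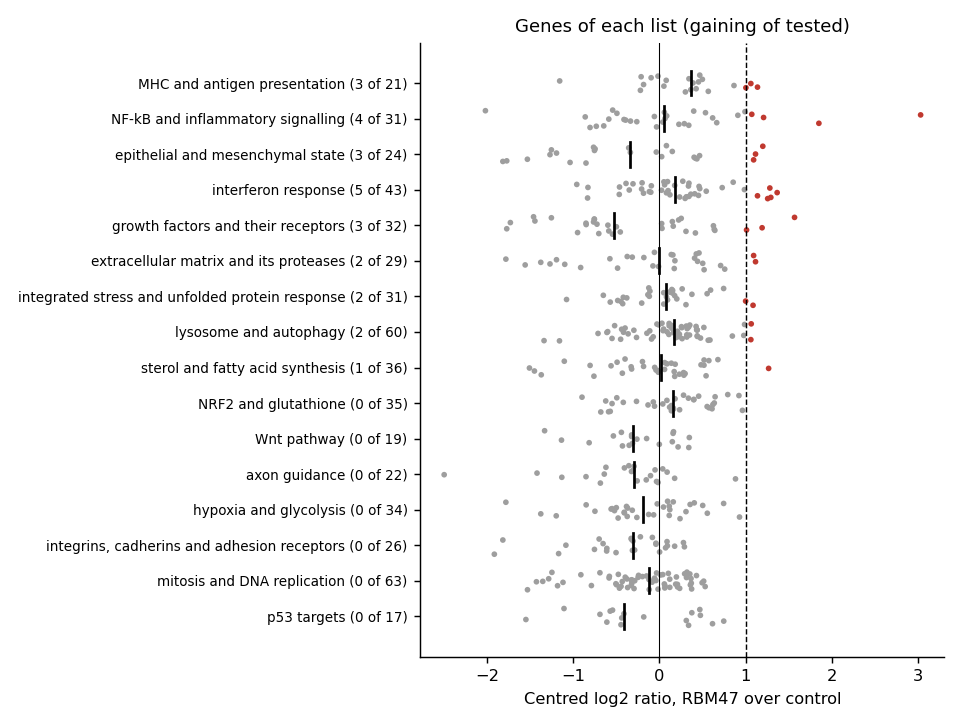
Centred log2 ratio of RBM47 over control for each tested gene of 16 gene lists, ordered by the share past the limit (dashed line at 1). Red points are among the 144 genes, black bars are list medians, and the numbers beside each name are gaining and tested genes, from 3 of 21 for MHC and antigen presentation to 0 of 17 for p53 targets.

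Of the genes that the study followed, IL8 was among the 144. HTATIP2, a proapoptotic metastasis suppressor, had 2182 and 3388 reads (0.84), and the MYC antagonist MXI1 had 379 and 434 (0.40). HBP1 had fewer than 200 reads and DKK1 had no row. The study chose these genes with related samples, so they are not independent evidence of a direction.

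Other genes among the 144 stand on no list and were picked after their values were seen, so they have no share to set against 2.06%, and the rule itself fixed their direction. APOL1, APOL2 and APOL3, a cluster of apolipoprotein L genes on chromosome 22, had 398 and 1119 (1.70), 220 and 481 (1.34) and 181 and 419 reads (1.42). APOC1, a lipoprotein component, had 2000 and 5456 (1.66). SLFN5 (294 and 636, 1.32), NLRP2 (135 and 360, 1.62), the kinase IKBKE (555 and 1055, 1.14), the cytokine IL15 (72 and 133, 1.09) and the butyrophilin BTN3A2 (705 and 1236, 1.02) are known from immune cells or immune signalling. GMFG, which acts on actin, had 796 and 2370 reads (1.78), the actin-severing protein GSN, or gelsolin, 1607 and 2950 (1.09), and the cofilin phosphatase SSH3 216 and 461 (1.30).

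The promoters of the 144 genes were read for the letters of an ISRE core (TTTCNNTTTC) and of an NF-kB site (GGGNNTTTCC) on both strands, in RefSeq windows of GRCh38.p14 from 250 bases before to 50 after each annotated start. A match is a description of the sequence only. Windows were found for 100 of the 144 genes and 5755 of the 6992. The ISRE core was in at least 1 window of 2 of the 100 genes (2%), BST2 and MX1, and of 4.10% of all tested genes, and in 3.57% of all promoter windows in the table. The NF-kB letters were in 4 of the 100 (4%), IL32, CD74, PLLP and PIK3R2, against 2.99% of tested genes and 1.91% of all windows. Of the 11 genes on the interferon, MHC and NF-kB lists, 6 had a window. The ISRE core was in 2 of these (BST2 and MX1) and the NF-kB letters in 2 (IL32 and CD74). The share among the other tested genes of these lists was not taken, so these counts have nothing to be set against. A match lay before the start in 5 of the 100 genes, BST2, MX1, IL32, PLLP and PIK3R2. The stretches of BST2, MX1 and IL32, with centred log2 ratios of 1.26, 1.28 and 3.03, are given with the matched letters in capitals. They are given because these genes are on the interferon or NF-kB lists.

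BST2, chr19:17405703-17405802, minus strand: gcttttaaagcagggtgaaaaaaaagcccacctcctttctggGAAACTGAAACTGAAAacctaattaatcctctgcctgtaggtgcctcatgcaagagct
MX1, start number 3 of 3, chr21:41431809-41431908, plus strand: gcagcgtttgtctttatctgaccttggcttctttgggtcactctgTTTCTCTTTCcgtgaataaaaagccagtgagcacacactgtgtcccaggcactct
IL32, chr16:3065259-3065358, plus strand: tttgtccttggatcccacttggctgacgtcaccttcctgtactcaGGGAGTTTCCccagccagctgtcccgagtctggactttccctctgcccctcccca

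In BST2 the capitals cover 2 overlapping matches of the ISRE core on the opposite strand, whereas MX1 and IL32 have 1 match each on the strand shown.

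The gain was then followed from exon to exon within each gene. The 144 genes had 451 cassette events, and 37 of them (25.7%) had only 1, close to the 26.0% of all tested genes. Of 107 genes with at least 2 events of 30 or more reads, every event was at 1 or more in 66 and every event was above 0 in 105. Among all 24574 events of at least 30 reads, 2.72% reached 1. These events belong to the genes the rule chose and were summed by it, so they describe how even the gain is within a gene. Events of a gene can hold the same reads, so their ratios are not independent. The 2 SNORA31 events, for example, had the same outer ends and the same skipping reads (7 in control and 0 with RBM47). The exceptions were DEF8, whose 12 events ranged from -0.03 to 1.29, and BTN3A2, whose 6 ranged from -0.29 to 1.29, both named after their values were seen.

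Reads that include an exon and reads that skip it mostly shared the direction. The median centred log2 ratio from including reads was 1.24 over all 144 genes. From skipping reads it was 1.16, taken over only the 88 genes with at least 30 skipping reads. Skipping reads alone were at 1 or more in 58 of the 88, between 0 and 1 in 29, and below 0 in ARAP3 (-0.31), a gene named after its value was seen. Including reads made up 87.5% of the 144 genes' reads in control and 87.7% in RBM47 cells, against 85.9% and 86.4% over all tested genes.

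Exon choice in these genes was tested from inclusion rates, which the rule did not use as such. The rule summed the same including and skipping reads, and Fisher's test used those totals, so the tests are not independent of the rule. The 451 events had a median rate of 0.931 in control samples and 0.925 with RBM47, and the middle 50% of differences ran from -0.018 to 0.014. In 75.2% of the events the rates of the 2 groups differed by less than 0.05, compared with 80.3% of all events. Under the study criteria, that is an unadjusted two-sided Fisher's exact p of at most 0.05, a difference of at least 0.2 and at least 10 reads, 7 of 451 events passed (1.55%), against 1.4% of all 24627 events. Inclusion was higher in RBM47 cells in 4, or 0.887% against 0.609% of all events, and lower in 3. The share of 1.55% is near that of all events.

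A replicate-level test used limma on the 6 arcsine-transformed rates of each event, for events with a mean rate of 0.1 to 0.9. It tested 122 events in 68 of the 144 genes and called 1 (0.82%), where a call needed a difference of 0.2 or more and a Benjamini-Hochberg adjusted p below 0.05, against 1.52% of 5982 events. At an unadjusted p under 0.05 there were 10 of the 122 (8.20%) and 720 of all 5982. Neither share was above that of all events, but the shares are not like for like. Some rates did not stand in the event's own row of the table and had to be found elsewhere. They stood in their own row for 439 of the 451 events and 23333 of all 24725 rows. With only such rows fitted, limma called 1 event over all genes, against 91 here.

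The 1 called event was in CTAGE5 (now MIA2), which takes part in export of large cargo from the endoplasmic reticulum. The rates were 0, 0.188 and 0.143 in control replicates 1 to 3 and 0.744, 0.692 and 0.624 in RBM47 replicates 1 to 3, so the groups were far apart. The difference was 0.576, with a limma adjusted p of 0.0413. These rates were not in the event's own row of the table and were found by the printed RBM47 average. The control rates found with them do not average to the control average printed for the event. The rates that stand in that row differ by -0.0138, the opposite direction. Over the 115 tested events whose rates stood in their own row limma called 0, and over all such events of the table it called 1. In control, 10 reads included the exon and 23 skipped it, and with RBM47 117 included it and 28 skipped it. The reads of the event had a centred log2 ratio of 2.34, while the other 4 events of the gene lay between 0.50 and 1.00. The whole gene had 449 and 784 reads (1.01), so it passed the limit of 1 through the event that was tested. The call was lost when any 1 of the 6 samples was left out, with adjusted p from 0.0696 to 0.164, and with the replicate number as a block (0.0991).

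The other 6 events passed the study criteria only, and in each the 3 rates of one group lay apart from the 3 of the other. Among all 451 events the groups did not overlap in 39 (8.65%), against 9.97% of all events, and the 7 were selected on the same difference. In SUN3 the rates were 0.455, 0.536 and 0.429 in control and 0.235, 0.141 and 0.204 in RBM47 cells (limma adjusted p = 0.0777). In BCHE, the gene of butyrylcholinesterase, they were 1, 0.714 and 1 against 0.5, 0.527 and 0.444 (limma adjusted p = 0.0590). In FBXL13, an F-box protein, all 3 control rates were 1 and the RBM47 rates were 0.714, 0.8 and 0.655 (limma adjusted p = 0.119). These 3 exons were skipped more often in RBM47 cells by the Fisher criteria. For BCHE and SUN3 the rates in the event's own row give the opposite direction, with differences of 0.376 and 0.0328. SUN3 has 1 event, with a centred log2 ratio of 3.08 from skipping and 0.86 from including reads. Its gain and its lower rate thus rest on the same reads.

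The exons kept more often were in PRELID1, SLC22A18 and TPD52L1. PRELID1 had rates of 0.440, 0.5 and 0.333 in control and 0.812, 0.684 and 0.733 in RBM47 cells (limma adjusted p = 0.292). SLC22A18, a transporter gene in an imprinted region, had 0.750, 0.714 and 0.429 against 0.852, 1 and 1 (0.253), from 34 and 73 reads. TPD52L1, a tumour protein D52-like factor, had 0.556, 0.5 and 0.750 against 0.867, 0.824 and 0.774 (0.459). The 4 events of CTAGE5, SUN3, BCHE and SLC22A18 are ones whose rates did not stand in their own row of the table. They were found by the printed RBM47 average alone, and the FBXL13 rates by both averages. In these 4 the control rates found do not average to the printed control average. Their differences and limma results rest on those control rates. The read totals, which took no part in the search for rates, had the same direction in all 7 events. As plain shares of including reads they met the limit of 0.2 in only CTAGE5 (0.504) and SUN3 (-0.364). The plain difference was -0.0588 in BCHE and 0.142 to 0.178 or -0.167 in the others. Plain shares count both junctions of a kept exon. With including reads halved, every event but BCHE met the limit. The halved shares in control and RBM47 cells were 1 and 0.714 in FBXL13, 0.659 and 0.947 in SLC22A18, and 0.6 and 0.817 in TPD52L1. The others are in the next paragraph. RBM47 replicate 2 stood slightly apart from the other samples, with a mean absolute rate difference of 0.0442 to its own group against 0.0360 to 0.0410 in the other 5. Its difference to the control group was 0.0486. RBM47 replicates 1 and 3 were about as far from control (0.0405 and 0.0404) as from their own group (0.0397 and 0.0410). The control samples lay at 0.0360 to 0.0366 from their own group and 0.0431 to 0.0432 from the RBM47 group. With the rates of RBM47 replicate 2 left out of the difference and the pooled reads of the Fisher test unchanged, the 7 events still met the limits and 11 did in all.

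The totals and the rates did not measure the same thing exactly. An exon that is kept has 2 junctions, so including reads were halved before the totals were set against the rates. In 4782 events of all genes whose rates stood in their own row, with at least 30 reads in each group and a mean control rate of 0.1 to 0.9, the median gap between the halved share and the mean rate was 0.0249 in control and 0.0292 in RBM47 cells. In 173 such events found by the RBM47 average alone it was 0.0306 and 0.0262. The halved share of CTAGE5 was 0.179 in control and 0.676 with RBM47, both within the range of the sample rates. That of SUN3, from 67 including and 25 skipping reads in control, was 0.573, above all 3 control rates, and with RBM47 it was 0.223. In BCHE it was 0.964 in control but 0.857 with RBM47, far above the 3 rates of 0.444 to 0.527, and in PRELID1 it was 0.623 in control and 0.835 with RBM47, each above all 3 rates of its group. The sizes of the BCHE and PRELID1 differences thus depend on which measure is used.

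**Figure D4:**
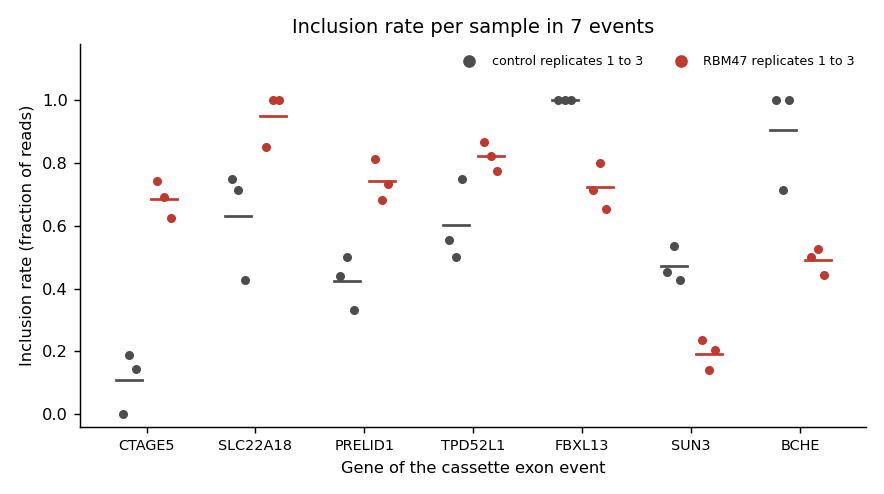
Inclusion rate (fraction, vertical) of the 7 events past the study criteria in each of 3 control (grey) and 3 RBM47 (red) samples, with bars at group means. The largest difference is in CTAGE5, and in every event the points of the 2 groups do not overlap.

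For SUN3 and FBXL13, exactly 1 coding exon of GRCh37 had neighbours whose outer ends spanned the length of the event, and both are on the minus strand of chromosome 7. They are printed because these short exons were skipped more often by the Fisher criteria, with the exon in capitals and 15 intron bases on each side. The main limma fit called neither event, and that of FBXL13 rests on 30 control and 66 RBM47 reads.

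SUN3, chr7:48030592-48030657: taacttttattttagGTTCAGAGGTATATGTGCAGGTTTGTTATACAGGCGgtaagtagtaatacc
FBXL13, chr7:102572313-102572395: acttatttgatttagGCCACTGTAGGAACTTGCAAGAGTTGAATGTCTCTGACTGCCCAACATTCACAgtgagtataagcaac

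The SUN3 exon has 36 bases and the FBXL13 exon 53. The match for BCHE is an exon of 1525 bases that is partly coding, and no single match was found for PRELID1, TPD52L1, SLC22A18 or CTAGE5.

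The 144 genes were spread unevenly over the chromosomes, a property that the rule did not use as such. Chromosome 16 held 18 of its 308 tested genes (5.84%), chromosome 13 held 12 of 126 (9.52%), chromosome 15 held 8 of 221 (3.62%) and chromosome 19 held 14 of 400 (3.50%). Chromosome 2 held 2 of 473 (0.423%), and chromosomes 10 and 18 held 0 of 288 and 0 of 98. On chromosome 16 the other genes were shifted as well, with a median centred log2 ratio of 0.34 over all 308 genes and 226 of them (73.4%) above 0, and a median of 0.28 without the members. Chromosome 19 had a median of 0.24 with 293 of 400 (73.3%) above 0, and chromosome 13 a median of 0.10 with 68 of 126 (54.0%) above 0. Chromosomes 22 and 17 also had medians above 0 (0.15 and 0.11), while chromosomes 2 and 4 lay lowest (-0.24 and -0.22). On chromosome 13 the ratios changed along the chromosome. In successive blocks of 20 tested genes, the 3 blocks from MTIF3 to UCHL3 had medians of 0.39, 0.38 and 0.48 and held 9 of the 12 members, whereas the next block, from LMO7 to TM9SF2, had a median of -0.30 and 0 members, and the block from PCCA to TMCO3 a median of -0.18 and 2. Blocks of other chromosomes were shifted in both directions, for example 0.65 on chromosome 5 (DNAJC18 to GNPDA1) and -0.84 on chromosome 12 (LTA4H to HSP90B1). All these medians are from the same totals as the rule.

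The counts per chromosome moved with the centring and the read minimum. With the ratio of the group totals subtracted in place of the median, chromosomes 16, 13 and 19 held 16, 7 and 12 members, and with nothing subtracted 9, 4 and 9. A minimum of 1000 reads left 12 of 217, 4 of 83 and 11 of 300, and with no minimum chromosome 19 had 25 of 490. From skipping reads only the counts were 9 of 132, 7 of 65 and 6 of 182.

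The genes of chromosome 16 lay mostly on one side of its longest stretch without a tested gene. Before it, from SNRNP25 to C16orf58, 2 of 167 genes were members (1.20%), IL32 and C16orf93, and the median was 0.16. After it, from SHCBP1 to GAS8, 16 of 141 were members (11.3%), the median was 0.55 and 116 genes were above 0. The 16 were PLLP, CKLF, CKLF-CMTM1, CES2, HSF4, FBXL8, ENKD1, AARS, DDX19B, CFDP1, MAP1LC3B, CYBA, MVD, TRAPPC2L, RPL13 and DEF8, named for their position after their values were seen. They have unrelated roles, among them the NADPH oxidase subunit CYBA (1657 and 3522 reads, 1.30), the ribosomal protein RPL13 (3831 and 7647, 1.21) and the carboxylesterase CES2 (252 and 507, 1.22). When each gene was set against the median of its own chromosome, an alternative added after the data were seen, 5 genes of chromosome 16, 6 of chromosome 13 and 9 of chromosome 19 reached 1, and 140 genes in all did so, 117 of them among the 144. Centred this way, LCP1 was at 3.20 and IL32 at 2.69. The part that the position of a gene plays in its ratio was not tested, and in a single clone it cannot be told apart from RBM47.

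**Figure D5:**
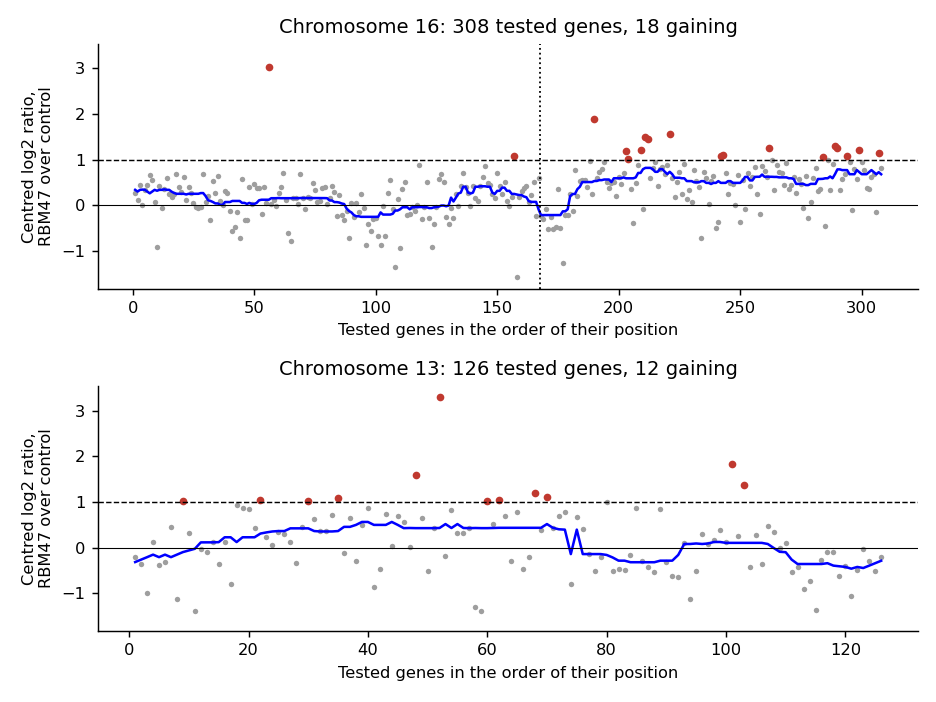
Centred log2 ratio of RBM47 over control (vertical) for tested genes of chromosomes 16 and 13 in the order of their position, members in red, with a running median over 21 genes (blue). The dotted line is the longest stretch of chromosome 16 without a tested gene, and 16 of the 18 members lie after it.

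Some of the 144 entries are not separate genes. Entries were counted as 1 locus where their events had the same outer ends, or where the stretches from the first to the last event overlapped in the table. This left 137 loci, with 14 entries in 7 shared loci, such as RPSA with SNORA6, CKLF with the read-through CKLF-CMTM1, HSF4 with FBXL8 and EGFL7 with MIR126. Neighbours whose events do not overlap, such as AARS and DDX19B or PIR and PIR-FIGF, were counted apart. Entries of a shared locus can hold the same reads and are not independent. Of the 144, 136 are annotated as protein coding, 5 as small nucleolar RNAs and 1 as a microRNA. The reads under a small RNA's name are junction reads at its place within a longer gene and do not measure the small RNA.

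Events under a small nucleolar RNA's name were set beside events of another gene at the same start. SNORA31 had 5131 and 13449 reads (centred log2 1.60), with both its events at 1.60, while the TPT1 event with the same outer ends had 18952 and 27411 (0.74). SNORD51 had 2416 and 5483 reads in 1 event (1.39), and the EEF1B2 event that starts at the same position, but ends elsewhere, had 645 and 504 (-0.15). SNORA6 (1540 and 4128, 1.63) and RPSA (735 and 2030, 1.67) shared their outer ends and were alike. SNORD18B had 6610 and 12240 reads (1.10) and SNORD18A 3210 and 6788 (1.29). TPT1 and EEF1B2 were named after their values were seen.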

How the data were processed

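RNA-seq of 3 control and 3 RBM47 samples was used. Deposited junction read counts, summed by the authors over the 3 samples of a group for the including and the skipping form of each cassette exon, were added up per gene. The authors also gave inclusion rates per sample as a fraction. Per the labels, TopHat was used. The version and the genome build of the table are not given in the sources used here. Exact repeat rows (77) and 21 events with no gene name (0.136% of reads) were dropped. Rates of rows whose printed averages did not match were found by those averages (tolerance 3e-09). For the 451 events this meant 439 in place, 8 found by both averages and 4 by the RBM47 average. In those 4 the printed control average was not matched. The authors' own differences, odds ratios and p-values were not used.

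Fisher's exact test used scipy 1.17.1, Benjamini-Hochberg statsmodels 0.14.6, and the replicate test limma 3.58.1 with R 4.3.3 and a variance trend on log2 reads. The gene totals and the limma fit were tested on simulated data. The members and lists were chosen with earlier results of these data known. A count model per sample, which had been planned, was not run because the counts are group totals. Depth per sample is unknown. Counting intervals (95%, exact binomial) cover counting error only, and are too narrow where events of a gene hold the same reads. The labels do not say whether replicates came from separate cultures, so p-values may measure technical spread. Genes were named by rank (15 largest ratios, 10 with most reads), by list, by event and by nearness to the limit, and others as stated. Values of some single genes of the interferon response list and of the genes the study followed are not reported here, and the list counts and medians include them.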

Additional observations from a re-analysis of the deposited data

How the results depend on the processing

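The number of gaining genes was within 1.5 times of 144 under 12 of 16 alternatives (96 to 179). It was 78 with no centring, 62 with a minimum of 1000 reads, 239 with no minimum and 68 from skipping reads only, of which 78, 62, 144 and 40 were among the 144. Across the 15 alternatives that recompute the ratios, which include these 4, only 15 of the 144 genes were past the limit in all. The median centred log2 ratio was 1.03 with no centring and 1.09 to 1.26 otherwise. No gene named by the rule turned below 0. Events past the study criteria were 2 of 7 in rows aligned as deposited only, 21 at a difference of 0.1, 4 at 0.3 and 3 with an adjusted Fisher p, and 6 to 11 with the rates of 1 replicate left out (pooled reads unchanged). Taken as deposited in their row, the differences of BCHE (0.376), SUN3 (0.0328) and CTAGE5 (-0.0138) had the opposite sign, against the read totals. limma called 3 events on untransformed rates (CTAGE5, BCHE and SUN3), 0 with the replicate block, 0 in aligned rows only and 0 to 1 without 1 replicate (BCHE, without control replicate 2). Without the variance trend, or over all mean rates, its 1 call was FBXL13. The replicate numbers did not pair the samples (r of deviations -0.0221, -0.0036 and 0.0142). Leaving out a sample could not be tried for read totals, which are pooled. A minimum or a subset changes how many genes or events are tested. The cause of the other shifts was not tested.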
